A study of Mus musculus with 6 samples.

Results

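The clustered protocadherins are a family of cadherin-like cell surface proteins encoded in 3 neighbouring gene clusters, named alpha, beta and gamma. The genes described here are every symbol in the count files that names an alpha, beta or gamma cluster member, which gave 58 of 24453 symbols: 14 in the alpha cluster, 22 in the beta cluster and 22 in the gamma cluster. RNA was sequenced from epidermal cells of mouse back skin at postnatal day 0, in 3 control libraries and 3 libraries labelled Eed cKO whose genotype is given as Eed-/-. The sort took EpCAM+ Sca1+ cells with much α6-integrin, a gate for progenitors of the epidermis between hair follicles. All 6 libraries share this gate and the age. The sources used here do not give the Cre driver, the deleted exons or the genotype of the control mice beyond the word control. The Eed protein belongs to the core of PRC2, a Polycomb complex that methylates histone H3 and keeps developmental genes silent. The comparison asks how each cluster member was expressed in epidermal progenitors with and without Eed.

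Each alpha and gamma gene has its own promoter and its own large first exon, which encodes the whole extracellular part, and is spliced to a few constant exons that all genes of that cluster share. Beta genes have no constant exons. In neurons, each cell uses a small and partly random set of promoters, chosen with the help of CTCF and cohesin, and the proteins on the surface bind like to like, which lets a neuron tell its own branches from those of other cells. The last genes of the alpha and gamma clusters, called C-type, are instead used by many cells alike. In skin the family is far less studied.

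The 3 control libraries held 25481306 to 29998531 counts each, and the 3 Eed cKO libraries 20998149 to 27447679. Eed itself was at 45.1, 41.1 and 53.1 CPM (counts-per-million, scaled between libraries) in control and at 37.0, 33.7 and 29.2 CPM in Eed cKO, here and below in the order of libraries 1, 2 and 3. The groups did not overlap, but the difference, a log2 fold change of -0.48 ± 0.19 (SE), did not pass the test (edgeR's quasi-likelihood test, adjusted p = 0.252). Counts over the whole gene do not show whether a deleted exon is missing. All 8 keratinocyte markers were detected, with a summed level of 27130 to 38530 CPM per library. Since the labels name no animals, p-values measure only the spread between these libraries, which may be technical. Xist at 8.55 CPM in Eed cKO library 2, against 5430 and 6890 CPM in libraries 1 and 3, shows that more than 1 animal gave the Eed cKO libraries. In control, Xist was at 7760, 5620 and 5300 CPM. The groups were thus not matched in Xist, which marks female cells, and sex was not in the fit.

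How reads of the shared exons were counted bears on every alpha and gamma value. In the GENCODE annotation of GRCm38, the assembly that mm10 names, each pair of alpha genes shares at least 2860 exonic bases and each pair of gamma genes at least 2116. Of the possible 100-base reads of an alpha gene, 41.6% to 56.7% have the same sequence as, or lie in, another cluster member, and of a gamma gene 25.9% to 62.7%. Beta genes are almost free of this, at 0% to 7.73%. The sources used here do not give the counting mode, but the values set a bound: had shared reads been added to every gene of a cluster, each gene would hold at least that number. The lowest gamma gene had 50, 8 and 27 counts in control and 23, 21 and 20 in Eed cKO, out of 4839, 5110, 4179, 4025, 3490 and 2528 counts over the gamma cluster. The lowest alpha gene had 0 counts in every library. Few shared reads can therefore have been added to every gene alike, whereas shared reads given to a single gene of the cluster would not show in this bound. The amount of RNA over the constant exons was not measured.

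The alpha cluster, which spans 258.6 kb of chromosome 18 (36930285 to 37188897 in RefSeq's GRCm38.p6 table), had very few counts in both groups. These counts may leave out reads of the constant exons. Its 14 genes together had 7, 48 and 33 counts in control and 20, 33 and 20 counts in Eed cKO. This is a summed level of 0.262, 1.53 and 1.29 CPM in control and of 0.729, 1.32 and 0.968 CPM in Eed cKO. The groups overlapped, with control library 1 the lowest of all 6. Pooled over each group the sum was 1.05 CPM in control (exact 95% Poisson interval 0.844 to 1.30) and 0.999 CPM in Eed cKO (0.783 to 1.26), intervals that cover counting error only.

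No alpha gene passed the filter on low counts, so none was tested. The genes Pcdha1, Pcdha4, Pcdha6, Pcdha7 and Pcdha11 had no count in any library. At a limit of 3 counts over a group this allows 0.0359 CPM in the pooled control libraries and 0.0411 CPM in the pooled Eed cKO libraries, and the exact 95% Poisson upper limits were 0.0441 and 0.0505 CPM. Pcdha3 had 41 counts, all in control library 2, and 18 in Eed cKO. Pcdha9 had 3, 2 and 22 counts in control and 0, 11 and 4 in Eed cKO. The few alpha reads were thus scattered over different genes in different libraries, and no alpha gene was detected in all 6. Pcdhac1, a C-type gene, had 3 counts in control and 0 in Eed cKO, and Pcdhac2, the other C-type gene, had 6 and 12. The first exons of Pcdha4, Pcdha6 and Pcdha7 also begin the read-through genes Gm37013, Gm38666 and Gm38667, which the annotation extends to the end of the gamma cluster. These 3 symbols were counted too, and their only counts were 2 for Gm38667 in control library 2. A read of such a first exon fits both genes, and how it was counted is unknown. The 0 counts of Pcdha4, Pcdha6 and Pcdha7 may therefore reflect the counting, and the limits above need not hold for them.

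The beta and gamma clusters were expressed at a low level in the sorted epidermal cells. The beta cluster lies in 256.4 kb (37264998 to 37521419) and the gamma cluster in 180.1 kb (37661775 to 37841873) of the same chromosome. The summed beta level was 116, 69.6 and 80.9 CPM in control and 78.1, 56.5 and 89.2 CPM in Eed cKO. Control library 1 was the highest and Eed cKO library 2 the lowest, and the groups overlapped: means were 88.7 ± 24.0 and 74.6 ± 16.6 CPM (SD, n = 3 each), a log2 ratio of -0.25. Without control library 1 that ratio was -0.02. The summed gamma level was 181, 163 and 163 CPM in control and 147, 140 and 122 CPM in Eed cKO. Here all 3 Eed cKO libraries lay below all 3 controls, with means of 136 ± 12.6 and 169 ± 10.3 CPM (SD, n = 3 each), 19.4% lower in Eed cKO, and leaving out any 1 library kept the log2 ratio between -0.37 and -0.24. Sums over genes chosen as a group carry no test.

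**Figure D1:**
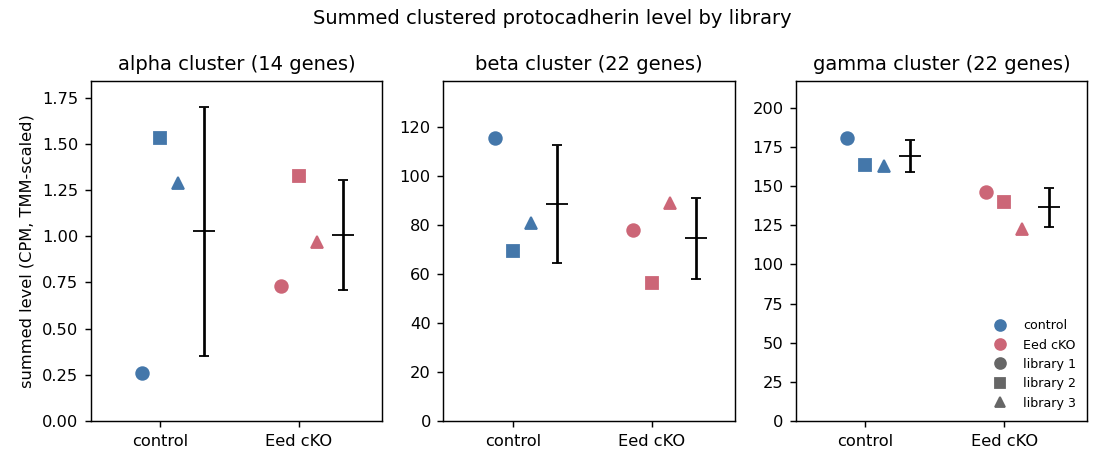
Summed level of the 14 alpha, 22 beta and 22 gamma genes (y axes, TMM-scaled CPM, each from 0) in control and Eed cKO libraries; symbols give the library number and the black bar the mean ± SD of 3 libraries. The alpha and beta sums overlap between groups, and the gamma sum is lower in every Eed cKO library, at 122 to 147 CPM against 163 to 181 CPM.

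Of the 58 genes, 43 passed the filter on low counts and were tested: 21 beta genes, all but Pcdhb1, which had no count in any library, and all 22 gamma genes. None rose and 1 fell at an adjusted p under 0.05, against 3.39% of all 14700 tested genes that rose, 0.816% that fell and 4.21% called in either direction, and 42 did not pass. At an unadjusted p under 0.05, 0 were higher and 4 lower in Eed cKO (9.3%), beside 8.63% and 6.24% of all tested genes. The 4 were Pcdhgb1, Pcdhga8, Pcdhb19 and Pcdhgb4. The 3 Eed cKO libraries lay below all 3 controls in 7 of the 43 (16.3%), beside 9.22% of all tested genes, and above them in 1 (2.33%), beside 11%. The log2 fold change was negative in 33 of the 43 and positive in 10. The median was -0.31, beside a median of -0.01 and 51.3% negative values over all tested genes. These genes share a locus and, within gamma, exons, so the 43 values are not independent. The negative values numbered 27 to 32 of 43 under the other scalings and tests that kept these 43 genes and all 6 libraries. Without control library 1, the median of the members tested was -0.17, with 29 of 45 negative, and without both libraries numbered 1 it was -0.14, with 30 of 45 negative.

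**Figure D2:**
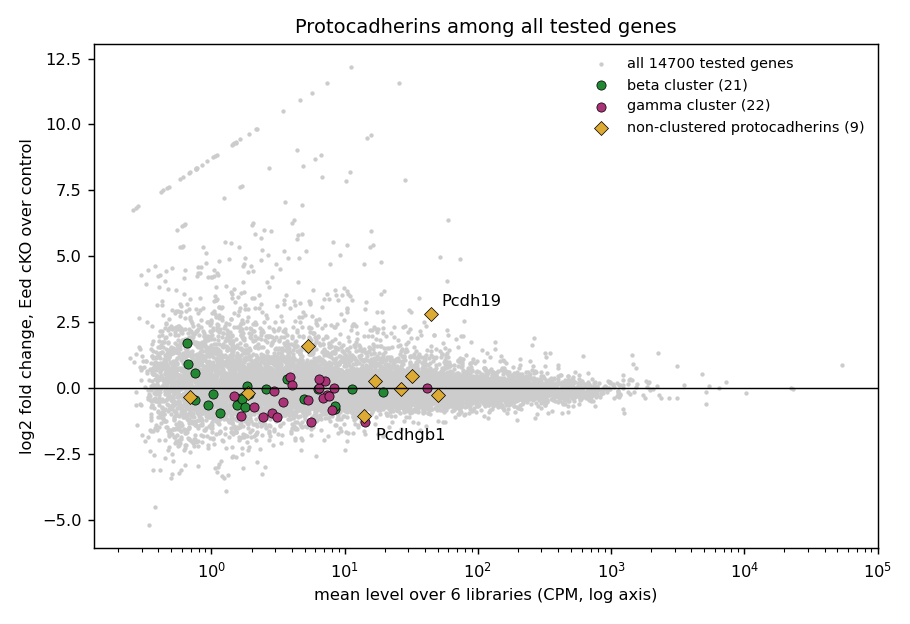
Log2 fold change of Eed cKO over control (y axis) against mean level over the 6 libraries (x axis, CPM, log scale) for all 14700 tested genes, with the 21 beta, 22 gamma and 9 non-clustered protocadherins marked; the grey diagonal at the upper left holds genes with no control count, whose fold changes are set by the prior count. The beta and gamma genes sit mostly a little below 0, and Pcdh19 stands above them at 2.83.

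The gene that fell was Pcdhgb1, a B-type gamma gene whose first exon is among the first of its cluster (chromosome 18, 37680233 to 37841870, GENCODE). It was at 18.3, 26.3 and 15.2 CPM in control and at 8.78, 8.39 and 7.65 CPM in Eed cKO. All 3 Eed cKO libraries were close together and below every control, of which library 2 was the highest. The mean was 20.0 ± 5.74 CPM in control and 8.27 ± 0.575 CPM in Eed cKO (SD, n = 3 each), 2.41-fold lower. The fitted log2 fold change was -1.27 ± 0.28 (SE), with an adjusted p of 0.0177 in edgeR's quasi-likelihood test. The call was lost without control library 2 (edgeR adjusted p = 0.0990), without Eed cKO library 2 (0.0717) or without Eed cKO library 3 (0.0824), with the log2 fold change between -1.44 and -1.0 over all 6 libraries left out in turn. In sorted bulk RNA, fewer cells that use a gene and less RNA of it per cell cannot be told apart.

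Pcdhgb1 also overlaps its neighbour Pcdhga4 over 1038 bases beyond the constant exons in GENCODE, so reads there could belong to either. Pcdhga4 was at 1.87, 1.88 and 1.09 CPM in control and at 1.24, 1.48 and 1.26 CPM in Eed cKO. The groups overlapped, and its log2 fold change of -0.28 ± 0.67 (SE) did not pass the test (edgeR adjusted p = 0.918). The counts of Pcdhga4 may leave out reads of the bases it shares, so its full level is uncertain.

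The gamma genes fall into A-type, B-type and C-type by the sequence of their first exons. Among the 12 A-type genes, 0 were called, 9 had a negative and 3 a positive log2 fold change, and the median was -0.33. Their summed level was 58.7, 65.2 and 57.1 CPM in control and 48.3, 51.0 and 51.2 CPM in Eed cKO, so that the groups did not overlap. Pcdhga8 had the lowest log2 fold change of the family. It was at 7.14, 10.6 and 6.09 CPM in control and at 2.0, 2.97 and 4.89 CPM in Eed cKO. The groups did not overlap, and the log2 fold change of -1.28 ± 0.43 (SE) missed the threshold (edgeR adjusted p = 0.141). Pcdhga8 overlaps Pcdhgb4 over 108 bases beyond the constant exons.

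The A-type genes ranged from such values to log2 fold changes near 0, of which Pcdhga5 and Pcdhga10 had the closest. Pcdhga5 was at 6.28, 8.02 and 4.96 CPM in control and at 6.63, 6.66 and 5.86 CPM in Eed cKO, a log2 fold change of -0.01 ± 0.35 (SE). Pcdhga10, the most abundant A-type gene in CPM, was at 7.78, 9.59 and 7.50 CPM in control and at 9.66, 8.35 and 7.16 CPM in Eed cKO, a log2 fold change of 0.02 ± 0.31 (SE). Both genes overlapped between groups. The remaining A-type genes had control means of 1.62 to 7.71 CPM, and their adjusted p in edgeR was 0.650 or more. Among them, Pcdhga2, Pcdhga1 and Pcdhga3 had log2 fold changes of -1.06 ± 0.84, -0.73 ± 0.63 and -0.51 ± 0.52 (SE). Pcdhga7 was the highest of the positive A-type values, at 0.27 ± 0.37 (SE).

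Of the 7 B-type genes, 1 fell (Pcdhgb1), 5 had a negative and 2 a positive log2 fold change, and the median was -0.31. The summed level was 61.2, 66.5 and 50.6 CPM in control and 46.1, 40.9 and 36.0 CPM in Eed cKO, with no overlap, a log2 ratio of -0.54. Without Pcdhgb1 the ratio was -0.27 and the groups overlapped. Pcdhgb2 was at 5.35, 2.75 and 3.12 CPM in control and at 1.78, 2.09 and 1.94 CPM in Eed cKO. Its groups did not overlap, and the log2 fold change of -0.95 ± 0.52 (SE) did not pass (edgeR adjusted p = 0.440).

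Pcdhgb4 was at 12.7, 11.6 and 6.60 CPM in control and at 7.80, 5.62 and 3.73 CPM in Eed cKO. Eed cKO library 1 lay above control library 3, so the groups overlapped, and the log2 fold change of -0.85 ± 0.38 (SE) did not pass (edgeR adjusted p = 0.312). Pcdhgb7 was the 1 member whose Eed cKO libraries all lay above the controls, at 7.72, 6.38 and 7.36 CPM against 6.36, 4.86 and 5.78 CPM. The gap between the groups was small, and the log2 fold change of 0.34 ± 0.34 (SE) did not pass (edgeR adjusted p = 0.752). Pcdhgb5 and Pcdhgb6 had log2 fold changes of -0.28 ± 0.33 and -0.31 ± 0.37 (SE). Pcdhgb8, which the annotation lists as a polymorphic pseudogene, was at 4.79, 3.13 and 1.99 CPM in control and at 6.41, 2.17 and 4.84 CPM in Eed cKO, with the groups overlapping.

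The 3 C-type gamma genes differed widely in level. Pcdhgc3 was the most abundant clustered protocadherin in CPM and per kilobase in both groups. This did not hold for the C-type genes as a class. Pcdhgc4 and Pcdhgc5 were at 1.22 and 0.606 CPM per kb in control, against 12.4 CPM per kb for Pcdhgc3. The rank of Pcdhgc3 assumes that it was not given shared reads of other gamma genes, which could not be checked. Pcdhgc3 was at 53.8, 25.4 and 46.3 CPM in control and at 49.5, 44.2 and 31.4 CPM in Eed cKO. Control library 2 was the lowest of all 6 and control library 1 the highest, so the control range enclosed every Eed cKO value. The mean was 41.8 ± 14.7 CPM in control and 41.7 ± 9.32 CPM in Eed cKO (SD, n = 3 each). The fitted log2 fold change was -0.00 ± 0.27 (SE), with an adjusted p of 0.998 in edgeR. Pcdhgc3 held 25.7% to 33.8% of the gamma counts in the 5 libraries where it led the cluster. In control library 2, Pcdhgb1 led instead, with 824 counts or 16.1% of the cluster.

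The other C-type genes had lower values in every Eed cKO library. Pcdhgc4 was at 3.25, 3.39 and 6.05 CPM in control and at 0.947, 2.13 and 2.81 CPM in Eed cKO. Pcdhgc5 was at 4.0, 2.81 and 3.20 CPM in control and at 1.71, 1.89 and 1.02 CPM in Eed cKO. Neither passed, with log2 fold changes of -1.11 ± 0.56 and -1.11 ± 0.55 (SE; edgeR adjusted p = 0.384 and 0.382). The summed level of these C-type genes was 7.57 CPM in control and 3.50 CPM in Eed cKO, whereas the sum with Pcdhgc3 overlapped between groups, at 49.4 and 45.2 CPM.

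**Figure D3:**
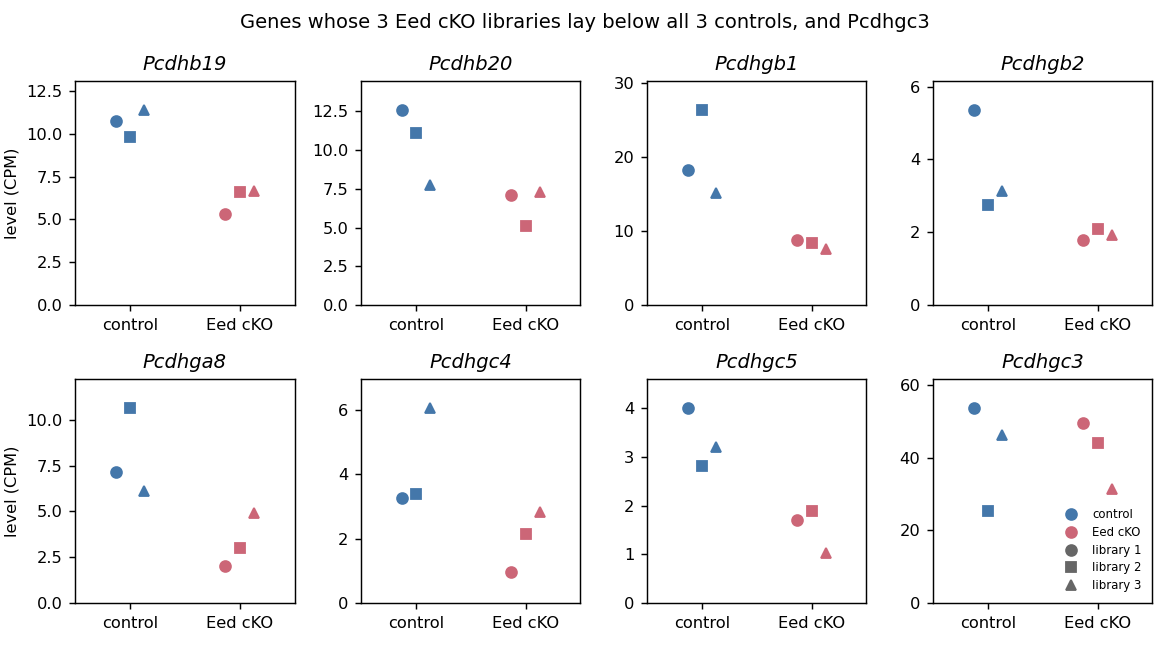
Level in each library (y axes, CPM, each from 0) of the 7 genes whose Eed cKO libraries all lay below the controls, and of Pcdhgc3; symbols give the library number. Pcdhgb1 is the 1 gene of these that passed the test, at 7.65 to 8.78 CPM against 15.2 to 26.3 CPM, and Pcdhgc3 overlaps, with control library 2 the lowest.

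Among the beta genes none rose or fell at an adjusted p under 0.05. Of the 21 tested, 16 had a negative and 5 a positive log2 fold change, with a median of -0.20, and without control library 1 the negative values numbered 11. Pcdhb16 was the most abundant beta gene (37477814 to 37483038), at 30.7, 15.9 and 15.0 CPM in control and at 20.0, 9.15 and 26.6 CPM in Eed cKO. Control library 1 was the highest and Eed cKO library 2 the lowest, and the groups overlapped, with a log2 fold change of -0.14 ± 0.36 (SE). Its neighbours Pcdhb17 and Pcdhb18 were at 6.62 to 16.9 CPM and at 4.09 to 8.13 CPM over the 6 libraries, both with a log2 fold change of -0.04 and SE of 0.36 and 0.37.

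The next neighbours, Pcdhb19 and Pcdhb20, were the 2 of 21 tested beta genes whose groups did not overlap. Both were lower in Eed cKO, and 9.22% of all tested genes lay apart in this direction. Pcdhb19 (37496991 to 37504128) was at 10.7, 9.78 and 11.4 CPM in control and at 5.32, 6.58 and 6.68 CPM in Eed cKO. The spread within each group was small, and the log2 fold change of -0.78 ± 0.31 (SE) did not pass after adjustment (edgeR adjusted p = 0.232). Pcdhb20 (37504264 to 37507822) was at 12.6, 11.1 and 7.73 CPM in control and at 7.10, 5.14 and 7.31 CPM in Eed cKO. Control library 3 lay just above Eed cKO library 3, and its log2 fold change was fitted at -0.68 ± 0.33 (SE; edgeR adjusted p = 0.360). For Pcdhb21 and Pcdhb22, the last genes of the cluster, the log2 fold changes were 0.06 ± 0.85 and -0.40 ± 0.52 (SE), and these 2 genes overlap over 455 bases.

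The most positive log2 fold changes of the beta cluster belonged to genes with very few reads. Pcdhb9 was at 0.150, 0.639 and 0.117 CPM in control and at 0.364, 0.923 and 1.74 CPM in Eed cKO. Control library 2 lay above Eed cKO library 1, and the log2 fold change of 1.70 ± 1.01 (SE) did not pass (edgeR adjusted p = 0.494). Pcdhb3 and Pcdhb5 followed at 0.93 ± 0.89 and 0.59 ± 0.94 (SE).

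Libraries of the same group differed widely more often for beta genes than for gamma genes. The highest control library was over 3 times the lowest, or the lowest was at 0, in 8 of 21 beta genes (38.1%) and in 2 of 22 gamma genes (9.09%), beside 15.5% of all tested genes. In Eed cKO this held for 9 beta genes (42.9%) and 3 gamma genes (13.6%), beside 13.5%. The tested beta genes also had fewer reads, with a median control level of 1.93 CPM against 5.91 CPM for gamma and 17.9 CPM for all tested genes. Pcdhb2 had 0, 74 and 6 counts in control and 1, 15 and 27 in Eed cKO. Pcdhb12 had 90, 7 and 56 counts in control and 68, 17 and 25 in Eed cKO, and Pcdhga2 had 105, 8 and 67 in control and 39, 21 and 20 in Eed cKO. Control library 2 was the highest for the first of these genes and the lowest of all for the other two.

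Markers of other cell types varied between libraries as well. The 6 endothelial markers summed to 29.9, 5.08 and 34.8 CPM in control and to 33.9, 6.06 and 8.33 CPM in Eed cKO, and all 6 had a count. The 6 immune markers summed to 189, 49.6 and 115 CPM in control and to 143, 30.7 and 35.7 CPM in Eed cKO, with Cd207 at 0 in Eed cKO. Both sums were high in control libraries 1 and 3 and in Eed cKO library 1, the 3 libraries in which Pcdhb12, Pcdhga2 and Pcdhgc3 were also highest. These 3 genes were picked out after their values were seen, and the part of other cells in their levels was not tested.

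For the cells best known to use these genes, the 10 neuronal markers summed to 11.1 to 16.9 CPM in control and 13.8 to 21.6 CPM in Eed cKO, with Nefl at 0 in all 6 libraries and 1 marker called higher. The 8 Schwann cell markers summed to 34.0 to 56.5 CPM in control and 54.8 to 61.3 CPM in Eed cKO. The melanocyte sum was 9.26 to 27.2 CPM in control and 12.3 to 21 CPM in Eed cKO. The fibroblast sum was 414 to 608 CPM in control and 611 to 705 CPM in Eed cKO, with no overlap. The Merkel cell sum did not overlap either, at 8.64 to 10.6 and 18.1 to 24.0 CPM, with Atoh1, Sox2 and Isl1 at 0 in control and 2 of the 8 markers called higher. The part of these cells, and of endothelial and immune cells, in the protocadherin levels was not tested.

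Levels of different genes were compared per kilobase of exonic bases that no other member shares. The whole count of each gene was divided by these bases, so a gene given shared reads would rank too high. How shared reads were counted is unknown. In control, Pcdhgc3 led at 12.4 ± 4.35 CPM per kb (SD, n = 3), followed by Pcdhgb1 at 7.61 ± 2.19 CPM per kb, whose spread overlaps that of Pcdhgc3. Pcdhb16 came next at 3.93 ± 1.69 CPM per kb, and within its spread of Pcdhgb6 at 3.30 ± 0.974, Pcdhga8 at 3.18 ± 0.951 and Pcdhga10 at 3.17 ± 0.434 CPM per kb. In Eed cKO, Pcdhgc3 again led at 12.3 ± 2.76 CPM per kb. Behind it came Pcdhb16 at 3.56 ± 1.69 CPM per kb. Within the spread of Pcdhb16 lay Pcdhga10 at 3.21 ± 0.477 and Pcdhgb1 at 3.16 ± 0.219 CPM per kb. The 12 A-type genes of the gamma cluster ran from 0.793 to 3.18 CPM per kb in control, with a median of 1.81. The 7 B-type genes ran from 1.32 to 7.61 CPM per kb, with a median of 2.18. The 3 C-type genes ran from 0.606 to 12.4 CPM per kb, with a median of 1.22.

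Along the beta cluster, later genes tended to have higher levels, though not evenly. In control the first 13 genes, Pcdhb1 to Pcdhb13, were at 0 to 0.745 CPM per kb with a median of 0.399. The last 9, Pcdhb14 to Pcdhb22, were at 0.373 to 3.93 CPM per kb with a median of 1.27, a division chosen after the values were seen. Among them, Pcdhb14, Pcdhb15 and Pcdhb21 were at 0.373, 0.391 and 0.425 CPM per kb, close to the median of the first 13. This held for Pcdhb15 only when the length of the RefSeq gene was used. By that length, the 3 genes were at 0.942, 0.391 and 0.666 CPM per kb in control. The first 13 then had a median of 0.42 and a highest value of 0.871 CPM per kb. Over the 22 genes, Spearman's rho between order and control level per kilobase was 0.67, and 0.75 when each gene was divided by the length of its RefSeq gene instead. Order in the beta cluster had a rho of -0.18 with the log2 fold change. In the gamma cluster, rho was 0.09 between order and control level and 0.27 between order and the log2 fold change. These correlations are across genes that share libraries and a locus, and serve as a description. The first 8 gamma genes, Pcdhga1 to Pcdhga6 with Pcdhgb1 and Pcdhgb2 among them, all had a negative log2 fold change, from -1.27 to -0.01, a stretch chosen after the values were seen. Of these, Pcdhga5 and Pcdhga6 were positive with limma-voom or a replicate block.

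**Figure D4:**
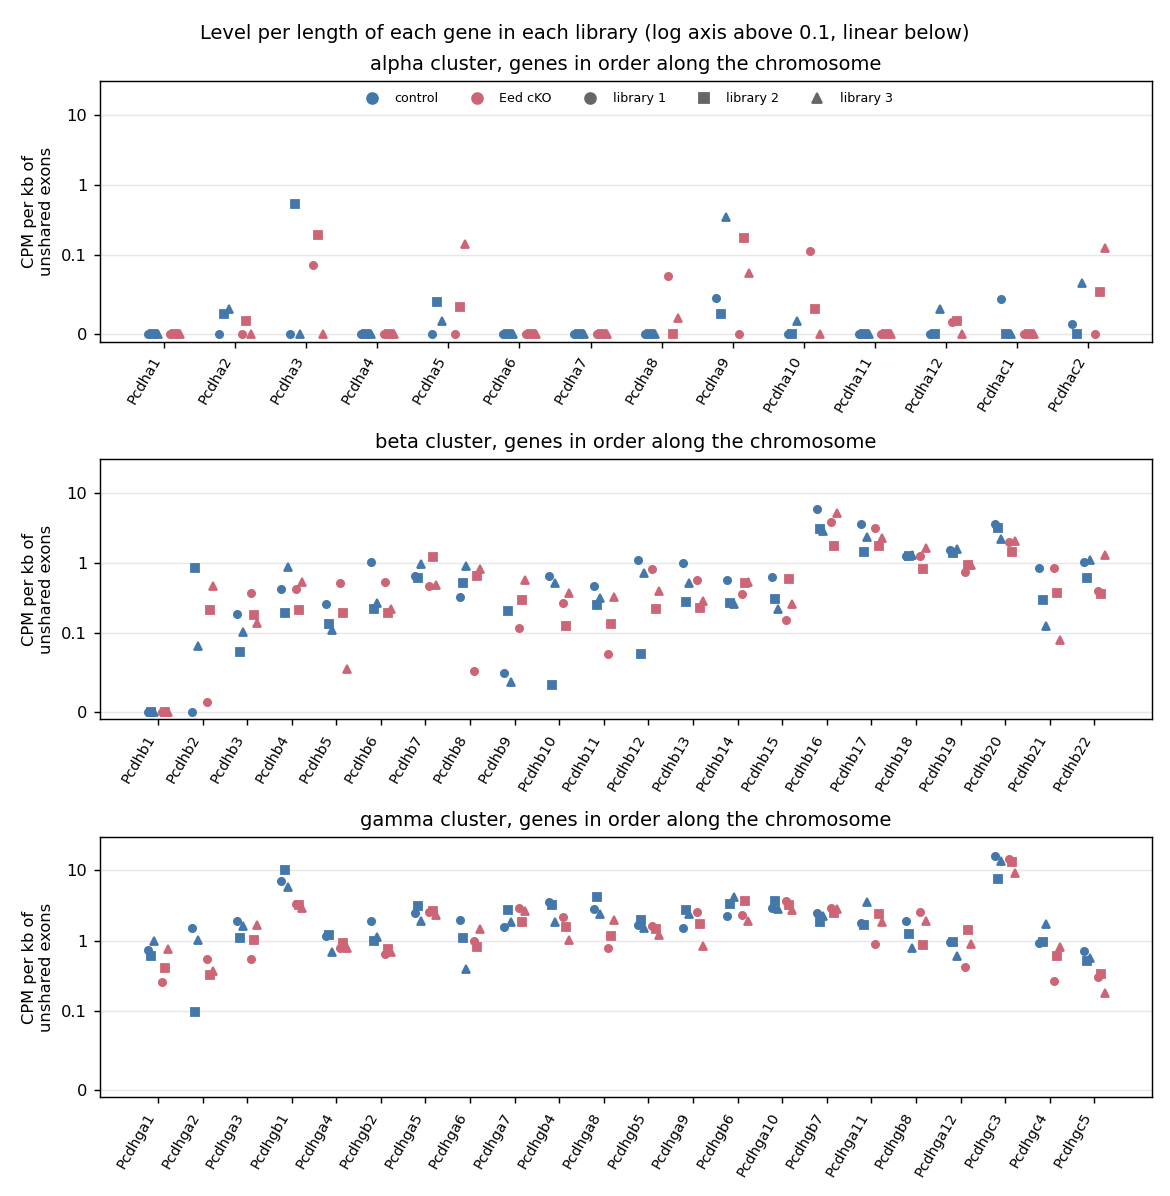
Level of each clustered protocadherin in each library (y axis, CPM per kb of unshared exons, log scale above 0.1 and linear below), with the genes of each cluster in order along the chromosome (x axis); colours give the group and symbols the library number. Alpha genes lie at or near 0, beta genes are higher from Pcdhb16 to Pcdhb20, and Pcdhgc3 is the highest of the gamma cluster in 5 libraries, with Pcdhgb1 above it in control library 2.

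**Figure D5:**
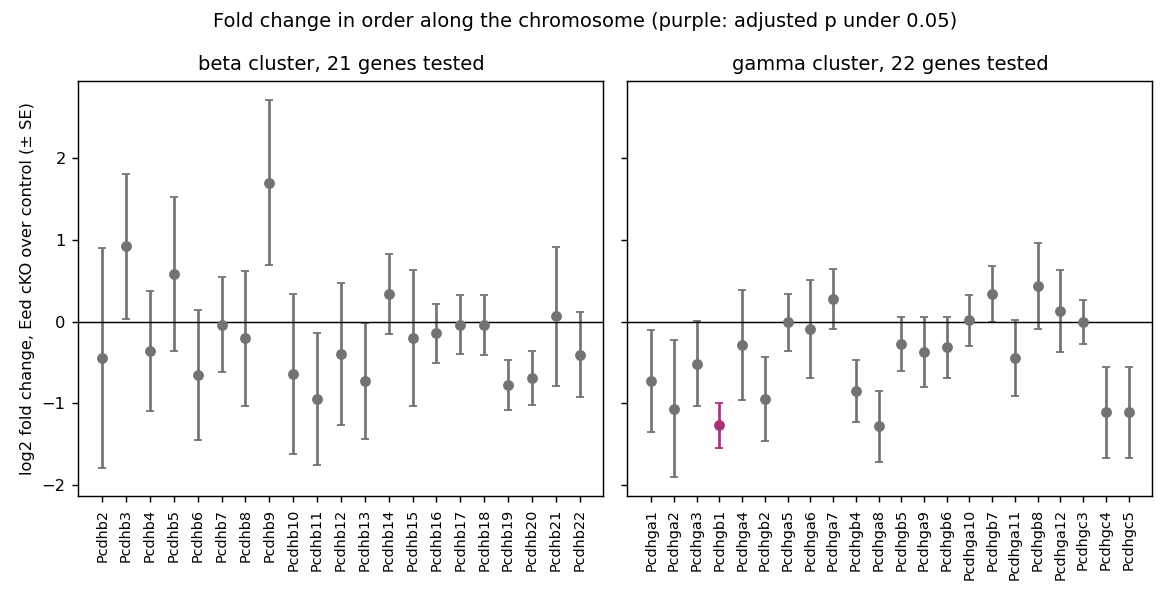
Log2 fold change of Eed cKO over control ± SE (y axis) for the 21 beta and 22 gamma genes tested, in order along the chromosome (x axis). Pcdhgb1, in purple, is the 1 gene with an adjusted p under 0.05, and error bars are widest for low genes such as Pcdhb2 and Pcdhb9.

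None of the genes next to or between the clusters passed the test. Of 19 tested neighbours, 0 rose and 0 fell at an adjusted p under 0.05 in edgeR, also 0 in either direction at an unadjusted p under 0.05, and their log2 fold changes ran from -0.88 to 0.44 with a median of -0.02. The groups did not overlap in 1 of them, Tmco6, named after its values were seen, at 5.80, 4.31 and 5.31 CPM in control and at 4.04, 3.45 and 4.26 CPM in Eed cKO. Its log2 fold change was -0.39 ± 0.40 (SE). Taf7, a subunit of the general transcription factor TFIID that lies between the beta and gamma clusters, was at 21.9, 25.4 and 28.8 CPM in control and at 25.7, 26.6 and 26.2 CPM in Eed cKO. The groups overlapped, with a log2 fold change of 0.04 ± 0.20 (SE). Slc25a2, a mitochondrial ornithine carrier beside Taf7, was too low to be tested, with 10, 7 and 7 counts in control and 3, 11 and 36 in Eed cKO. The 2 neighbours with the smallest p-values were Cd14, a myeloid receptor for bacterial lipopolysaccharide, with a log2 fold change of -0.88 ± 0.63 (SE; edgeR adjusted p = 0.604), and Wdr55, at 0.32 ± 0.24 (SE; 0.627).

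The factors known to bind or silence these clusters were expressed in both groups. Of 13 genes for CTCF, cohesin with its loaders and release factors, and the REST repressor complex, 0 were called and all 13 had a negative log2 fold change, with a median of -0.20. Ctcf, whose protein anchors promoter loops in the clusters, was at 162, 162 and 201 CPM in control and at 107, 169 and 134 CPM in Eed cKO. Eed cKO library 2 lay above 2 of the controls, and its log2 fold change was fitted at -0.36 ± 0.19 (SE; edgeR adjusted p = 0.419). The cohesin subunit gene Rad21 had a log2 fold change of -0.04 ± 0.19 (SE). The smallest p-values of the 13 belonged to the cohesin regulator Pds5b, with a log2 fold change of -0.43, and to Rcor1, a REST corepressor, at -0.44 (edgeR adjusted p = 0.221 and 0.239).

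Of 15 silencers, which act through DNA methylation, histone methylation or chromatin compaction, 0 were called and 11 had a negative log2 fold change. Smchd1, whose protein is known to restrain clustered protocadherin expression, was at 186, 155 and 158 CPM in control and at 110, 132 and 125 CPM in Eed cKO. The groups did not overlap, and the log2 fold change of -0.45 ± 0.16 (SE) did not pass (edgeR adjusted p = 0.175). Uhrf1, which guides maintenance DNA methylation, was at -0.47 ± 0.18 (SE; edgeR adjusted p = 0.236). Dnmt3b, the methyltransferase known to methylate the promoters of these genes early in development, was at 25.7, 14.4 and 18.3 CPM in control and at 24.6, 25.2 and 15.4 CPM in Eed cKO, overlapping between groups.

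The other PRC2 genes were not called. Ezh2, the main methyltransferase of the complex, was at 127, 219 and 203 CPM in control and at 88.6, 142 and 111 CPM in Eed cKO. Eed cKO library 2 lay above control library 1, and its log2 fold change was fitted at -0.69 ± 0.22 (SE; edgeR adjusted p = 0.120). Suz12 and Ezh1 were at -0.25 ± 0.20 and -0.05 ± 0.19 (SE).

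Of 19 tested binding partners and effectors of clustered protocadherins, 0 rose and 1 fell, Abi2, a part of the WAVE complex that drives actin branching and is known to bind the tails of some clustered protocadherins. It was at 103, 104 and 95.7 CPM in control and at 62.5, 58.2 and 69.1 CPM in Eed cKO. The groups were well apart, with a log2 fold change of -0.67 ± 0.16 (SE; edgeR adjusted p = 0.0330), and the call was lost when any 1 library was left out, with adjusted p from 0.0698 to 0.143.

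The clustered genes were set beside protocadherins and other cadherins encoded elsewhere in the genome. Of 16 such protocadherin and protocadherin-like genes, 9 were tested, 1 rose and 0 fell. Pcdh19, an X-linked adhesion gene known from epilepsy, was at 17.7, 6.97 and 8.08 CPM in control and at 77.7, 69.7 and 85.0 CPM in Eed cKO. Every Eed cKO library was far above every control, with means of 77.5 ± 7.69 and 10.9 ± 5.92 CPM (SD, n = 3 each). Its log2 fold change was fitted at 2.83 ± 0.31 (SE; edgeR adjusted p = 0.000111). Pcdh9 was lower, at 9.0 ± 3.51 CPM in Eed cKO and 18.7 ± 0.892 CPM in control (SD, n = 3 each), with no overlap, and missed the threshold (log2 fold change -1.06 ± 0.30, edgeR adjusted p = 0.0686). Pcdh7 was higher, at 37.2 ± 1.99 CPM in Eed cKO and 27.0 ± 2.97 CPM in control (SD, n = 3 each), also with no overlap, and did not pass (log2 fold change 0.46 ± 0.19, edgeR adjusted p = 0.266). Pcdh17 was at 5.80, 0.735 and 1.44 CPM in control and at 8.16, 4.82 and 11.1 CPM in Eed cKO. Control library 1 lay above Eed cKO library 2, and the log2 fold change of 1.59 ± 0.63 did not pass (edgeR adjusted p = 0.237). Pcdh1, which lies on the same chromosome outside the clusters, was at 15.1 ± 4.72 CPM in control and 18.4 ± 2.63 CPM in Eed cKO (SD, n = 3 each).

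Among the 8 tested Fat, Dachsous and Celsr genes, large cadherins of planar polarity, Dchs1 rose (log2 fold change 1.97 ± 0.43, edgeR adjusted p = 0.0164) and Fat4, which encodes the binding partner of its product, fell (-1.25 ± 0.23, 0.00613). The Dchs1 call was lost without Eed cKO library 2 or 3 (edgeR adjusted p = 0.0657 and 0.0809), where its log2 fold change was 1.97 and 1.90. Of 18 tested classical and desmosomal cadherins, 1 rose, the desmosomal gene Dsc2 (log2 fold change 1.05 ± 0.25, edgeR adjusted p = 0.0267). That call was lost without control library 1 or 2 or without Eed cKO library 2 or 3 (edgeR adjusted p from 0.0646 to 0.137), with a log2 fold change of 0.93 to 1.04. The log2 fold change was positive in 14 of these 18 genes, with a median of 0.29, whereas it was negative in 33 of the 43 clustered genes. Whether these lists differ was not tested.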

How the data were processed

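RNA-seq was made from 6 libraries of sorted epidermal cells, 3 control and 3 Eed cKO, as 100-base single reads of amplified total RNA, per the labels' protocols. The authors deposited raw counts for each gene symbol. Per the submitters' processing notes, the build was mm10 and the tools were HTSeq 0.6.1, TopHat2 2.0.13, DESeq2 1.6.3 and Cufflinks 2.2.1, with no role for each. The sources used here give no annotation, strand setting or counting mode, and counts of overlapping genes are uncertain.

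Counts were fitted in R 4.3.3 with edgeR 4.0.16: TMM scaling, filterByExpr (14700 genes kept, 9753 removed), a quasi-likelihood test on genotype, Benjamini-Hochberg adjustment over all kept genes and a threshold of 0.05. A gene is called past that threshold. CPM values are TMM-scaled. The biological coefficient of variation was 0.334. With 3 against 3 libraries an exact permutation p cannot go below 0.1, so none is given. Intervals and floors (3 counts) cover counting error only, since amplified reads are not independent molecules. On simulated counts for this comparison (14677 genes tested in the first of 3 draws), 42% of genes changed 2-fold and 73% of those changed 4-fold were called, and 6.25% of calls were false.

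Cluster sums take all symbols of a cluster. Gene coordinates and exonic and shared bases come from GENCODE M21 on GRCm38, cluster spans and read-through genes from RefSeq (GRCm38.p6), and shared reads were counted as identical 100-base windows. The read-through genes were left out of the shared bases. Of the other genes, those named are Eed, Ezh1, Ezh2, Suz12, Ctcf, Smchd1, Rad21, Dnmt3b, Taf7 and Slc25a2, and of each list up to 4 called genes with the smallest p, or 2 where none was called. Pcdh1, Pcdh7, Pcdh9, Pcdh17, Tmco6 and the read-through genes were named outside this rule. The members and lists were chosen with earlier results of these data known. Alternatives were scaling by RLE or upper quartile, no filter on low counts, a filter at 1 CPM in at least 3 libraries, limma-voom (limma 3.58.1), DESeq2 1.42.0, a replicate block, sums without the leading gene, and leaving out each library. Leaving out both libraries numbered 1 was added after seeing the data. Figures were drawn with matplotlib 3.10.9. No sequence of these genes is printed.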

Additional observations from a re-analysis of the deposited data

How the results depend on the processing

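Low levels limit what can be said of the family: no alpha gene passed the filter, and most beta genes had under 3 CPM. With no filter 9 alpha genes entered the test, and 1 or 2 did in 5 of the 6 fits that left out 1 library and in the fit without both libraries numbered 1. No clustered gene was called higher under any alternative run. The count called lower stayed at 1, Pcdhgb1, under every scaling, filter and test, and ranged from 0 to 1 when single libraries were left out. The gamma sum gave a log2 ratio of -0.43 without Pcdhgc3, and -0.37 to -0.24 with 1 library left out. The beta sum ranged from -0.40 to -0.02 and the alpha sum from -0.49 to 0.39 in the same way. Over all genes, DESeq2 called 764 higher and 270 lower, no filter gave 257 lower, and leaving out 1 library gave 302 to 456 higher and 35 to 118 lower. Leaving out both libraries numbered 1 gave 434 higher and 107 lower, within the ranges for leaving out 1. The cause of these differences was not tested.

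The labels number both groups 1 to 3 without saying that numbers pair libraries. Residuals of same-numbered libraries correlated at 0.31, 0.10 and 0.03. Control library 2 correlated best with Eed cKO library 3 (0.12), so the numbers were not taken as pairs. The 0.31, between the libraries numbered 1, was the highest correlation of any control with any Eed cKO library. On the axis of second largest spread over tested genes (principal component 2), these libraries also stood together, at 25.6 and 29.9. The others lay at -20 to -7.72. What the libraries numbered 1 share was not tested. With a replicate block 675 genes were called higher and 269 lower, against 499 and 120 without it. The clustered count called lower stayed at 1. Signs turned for Pcdhb2 (0.48), Pcdhb17 (0.0139), Pcdhb21 (-0.0191), Pcdhga5 (0.0147), Pcdhga6 (0.0887) and Pcdhgc3 (0.0379), on the log2 scale.

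No gene whose sign turned had passed the test. With limma-voom the log2 fold change turned for Pcdhb2 (0.41), Pcdhb10 (0.12), Pcdhb12 (0.24), Pcdhb17 (0.0585), Pcdhga5 (0.0055), Pcdhga6 (0.10), Pcdhga12 (-0.0534) and Pcdhgc3 (0.0691). Upper-quartile scaling turned Pcdhga5 (0.00542) and Pcdhgc3 (0.0112), and RLE scaling, the filter at 1 CPM and DESeq2 turned Pcdhgc3 (0.00554, 0.00422 and 0.00518). Without both libraries numbered 1, it turned for Pcdhb7 (0.11), Pcdhb8 (0.0601), Pcdhb15 (0.70), Pcdhb16 (0.22), Pcdhb17 (0.0921), Pcdhga6 (0.61), Pcdhga7 (-0.0339), Pcdhga10 (-0.14), Pcdhgc3 (0.0821), Rad21 (0.00321) and Taf7 (-0.0347).

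Leaving out 1 library turned the sign of these genes at least once, with these ranges of the log2 fold change: Pcdhb2 -1.45 to 2.43, Pcdhb4 -0.73 to 0.33, Pcdhb5 -0.44 to 1.05, Pcdhb6 -1.28 to 0.37, Pcdhb7 -0.62 to 0.21, Pcdhb8 -0.72 to 0.34 and Pcdhb12 -1.02 to 0.28. For the later beta genes they were Pcdhb15 -0.90 to 0.35, Pcdhb16 -0.49 to 0.26, Pcdhb17 -0.30 to 0.34, Pcdhb18 -0.28 to 0.19 and Pcdhb21 -0.85 to 1.04. For gamma genes they were Pcdhga5 -0.17 to 0.20, Pcdhga6 -0.50 to 0.54, Pcdhga10 -0.10 to 0.15, Pcdhga12 -0.33 to 0.48 and Pcdhgc3 -0.25 to 0.22. For other genes they were Dnmt3b -0.00244 to 0.41, Ezh1 -0.17 to 0.0282, Rad21 -0.24 to 0.11 and Taf7 -0.0541 to 0.14. Ezh2 passed the test in 4 alternatives: no filter, the replicate block, without control library 1, and without both libraries numbered 1. The Dsc2 call was lost in 4 and the Dchs1 call in 2 of the 6 fits that left out 1 library.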
